A study of Mus musculus with 10 samples.

Results

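Adherent macrophages from mouse tumours were compared with adherent macrophages from the peritoneal cavity, both untreated, on 4 of the 10 arrays of the series. These 4 arrays were chosen by their labels, which name untreated peritoneal exudate cells (PEC) in one channel and untreated tumour-associated macrophages (TAM) in the other. The labels call them TAM-b, TAM-2R, TAM-3 and lastly TAM-8, and values over the arrays are given in this order. The genes described are those of the 7486 features, among 9596 on the array, that had 1 gene symbol. Averaging the features of a gene gave 6795 named genes, which were tested together with the other features as 8905 genes or features.

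Both kinds of cell came from C57/6N mice aged 8 weeks, TAM were taken 3 weeks after a tumour had been implanted, and both were kept in culture as adherent cells. The labels do not name the tumour, state how many animals were pooled or say that the arrays were separate cultures, so a p-value here reflects array-to-array spread alone, part or all of which may be technical. The remaining 6 arrays are TAM1 and TAM7, on which TAM and PEC had both received lipopolysaccharide (LPS) at 100 ng/mL for 4 hours, PEC1 and PEC2, which set PEC with LPS against untreated PEC, and TAM-trial and TAM-16, which set TAM with LPS against untreated TAM. All values are log2 ratios, TAM over PEC unless stated, so 0 means equal signal in both.

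Resident macrophages of the peritoneal cavity secrete complement-activating lectins, scavenger proteins and protease inhibitors, and clear particles and lipid from the cavity fluid. Macrophages in tumours derive largely from blood monocytes and are often described by genes of alternative activation (M2), of interferon responses and of the uptake of dying cells. By its title the study concerned an M2 programme of tumour macrophages, and the untreated comparison addresses how these cells differ from peritoneal macrophages before a stimulus.

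The promoters of 4 genes are shown here because the results turn on them. Saa3, Fcna and Retnla had the lowest TAM to PEC ratios, and Cxcl10 was the gene closest outside the threshold. The sequences are those of RefSeq on GRCm38.p6, from 250 bases before to 50 bases after the annotated start, on the gene's strand, and capitals mark the motif matches described after them.
Saa3: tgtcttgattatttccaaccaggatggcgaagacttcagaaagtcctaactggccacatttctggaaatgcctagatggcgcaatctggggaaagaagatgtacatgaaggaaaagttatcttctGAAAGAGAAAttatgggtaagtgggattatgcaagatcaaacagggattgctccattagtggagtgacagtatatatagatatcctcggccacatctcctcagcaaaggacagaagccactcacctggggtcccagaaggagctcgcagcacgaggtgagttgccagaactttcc
Fcna: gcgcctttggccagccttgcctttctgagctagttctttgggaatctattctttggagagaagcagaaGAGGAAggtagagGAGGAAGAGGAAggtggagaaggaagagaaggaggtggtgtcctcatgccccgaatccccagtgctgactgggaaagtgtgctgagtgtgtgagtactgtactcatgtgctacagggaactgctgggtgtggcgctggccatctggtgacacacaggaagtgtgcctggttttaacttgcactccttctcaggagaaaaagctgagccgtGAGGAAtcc
Retnla: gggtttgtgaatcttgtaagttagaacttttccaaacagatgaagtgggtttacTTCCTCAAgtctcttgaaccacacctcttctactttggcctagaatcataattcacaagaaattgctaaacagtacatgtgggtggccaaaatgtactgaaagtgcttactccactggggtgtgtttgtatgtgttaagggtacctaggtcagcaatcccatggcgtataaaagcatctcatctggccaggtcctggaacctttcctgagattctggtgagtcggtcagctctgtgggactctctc
Cxcl10: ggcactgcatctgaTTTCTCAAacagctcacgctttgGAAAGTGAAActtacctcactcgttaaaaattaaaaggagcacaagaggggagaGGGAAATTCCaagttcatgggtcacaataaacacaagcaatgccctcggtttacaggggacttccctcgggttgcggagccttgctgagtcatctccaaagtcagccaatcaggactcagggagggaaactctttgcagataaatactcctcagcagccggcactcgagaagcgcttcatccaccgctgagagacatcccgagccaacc

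They lie at chr7:46715627-46715926 (Saa3, minus strand), chr2:25627925-25628224 (Fcna, minus strand), chr16:48842359-48842658 (Retnla, plus strand) and chr5:92348840-92349139 (Cxcl10, minus strand). On both strands, 4 motifs were searched as exact letters: GAAA and GAAA with 2 free bases between for the interferon-stimulated response element, GGGA and TTCC with 2 free bases between for NF-kB, GAGGAA for the macrophage factor PU.1 and TTGNGNAA for C/EBP factors. Saa3 held 1 match to the interferon element, and Fcna held 4 matches to the PU.1 letters, a pair of which touch. In Retnla 1 PU.1 match overlapped 1 C/EBP match. Cxcl10 held 1 match each to the interferon, NF-kB and C/EBP letters.

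Among the 37 named genes past the test described next, 27 had a promoter in the RefSeq table, 8 of them higher and 19 lower in TAM. The interferon letters were in 0 of the 8 and in 2 of the 19 (Plk2 and Saa3), against 3.44% of all 32851 promoters. The NF-kB letters were in the promoters of none of these 27 genes, against 1.47% of all promoters. The PU.1 letters were in 3 of the 8 and 8 of the 19, against 28.3% of all, and the C/EBP letters in 0 of the 8 and 4 of the 19, against 13.3%. A gene was counted if any of its promoters matched, while the percentages are over single promoters, so the 2 are not strictly alike. A match is a description of the letters and not a binding site.

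Without stimulus, 41 of 8905 genes or features (0.46%) differed between TAM and PEC at a Benjamini-Hochberg adjusted p under 0.05 in limma. Of these, 11 were higher in TAM (0.124%) and 30 were lower (0.337%). The named ones were 10 higher and 27 lower genes, and 4 were unnamed features (1 higher, 3 lower). Of the 37 named genes, 36 were measured by 1 feature each. On the 4 arrays, r between 2 features of 1 gene was only -0.006 to 0.062, which limits every gene name given below. The genes lower in TAM were led by secreted products of peritoneal macrophages, with genes of lipid transfer and of extracellular proteolysis among them. The genes higher in TAM included the tetraspanin Cd81, the Fc receptor-like gene Fcrls, the interferon-responsive genes Ly6e and Irf7, the complement gene C1qa and the uptake receptor Axl.

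Each of the 41 kept 1 sign over the 4 arrays, and 19.6% of all genes or features did (8.77% above 0 and 10.8% below 0 on each array). The 41 were chosen by their mean over these same arrays, which favours 1 sign, so nothing is read from that contrast. Mean log2 ratios of the 41 ranged in size from 1.70 to 6.61. The count rested on single arrays: leaving out TAM-8 gave 6 calls and leaving out TAM-2R 13, and the count was 14 without any 1 of PEC1, PEC2, TAM1 and TAM7, 19 without TAM-3, 23 without TAM-b and 24 without either TAM-trial or TAM-16. Cd81, Fcna, Pltp, Retnla and Saa3 passed in all of these 10 fits. Axl, C1qa, Id3, Irf7, Mcm5 and Nubp1, higher in TAM, and Bhlhe40, Ctsd, Mdm2, Nnmt and P2ry2, lower in TAM, passed in 0 of them. All 41 kept their sign in these fits, which follows from their 1 sign on the 4 arrays. The dyes are not named, so which cell type is the higher one is likely rather than certain. The reading rests on PEC with LPS, where 49 of 55 NF-kB and interferon genes lay above 0 on each of PEC1 and PEC2, with medians of 1.53 and 1.65. TAM-2R has its channels exchanged and was turned, and read without turning it gave 0 calls (873 at an unadjusted p under 0.05, against 1274). Of the 4 arrays TAM-8 alone came from another print, v9p2. With the arrays of print v3p6 only, 0 passed, and the signs of the 41 could not change for the same reason. With a dye term for each print 4 passed. The p-values rest on the spread within all 10 arrays (6 residual degrees of freedom), while each SD printed is that of the 4 untreated arrays. With these 4 arrays alone 2 passed, 0 higher and 2 lower, and the smallest adjusted p in limma was 0.0278.

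**Figure D1:**
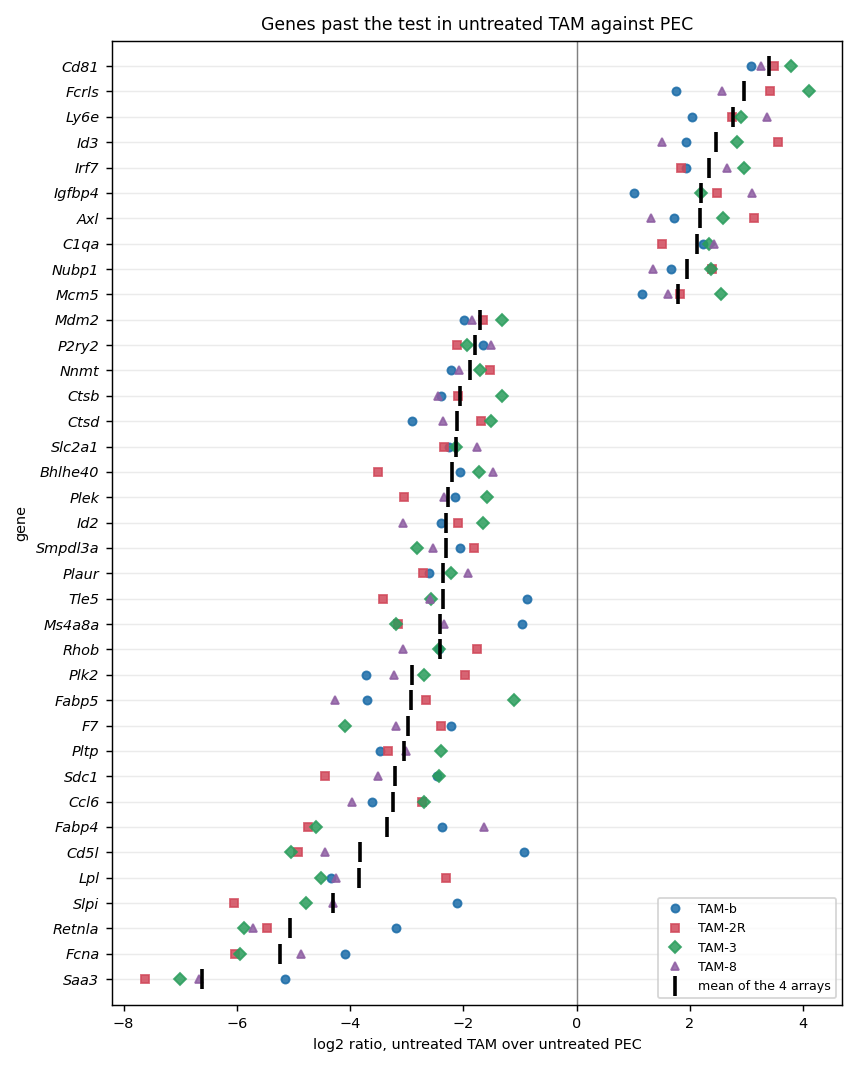
The log2 ratio of untreated TAM over untreated PEC (x axis) of the 37 named genes past the test (y axis), with 1 point for each of the 4 arrays and a black bar at their mean. The 10 higher genes lie above 0 and the 27 lower genes below 0 on every array. Cd5l, Tle5 and Ms4a8a have TAM-b nearest 0, and the points of Cd81 lie close together.

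The lowest ratios belonged to secreted proteins of peritoneal macrophages. Saa3 (Entrez 20210), a serum amyloid A made by activated macrophages, had log2 ratios of -5.15, -7.62, -7.00 and -6.67 in array order. Every array was far below 0, with TAM-b the least so. The mean was -6.61 ± 1.05 (SD, n = 4), or 97.7-fold lower in TAM, with an adjusted p of 0.00042.

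Fcna (Entrez 14133), which encodes ficolin A, a lectin that starts the complement cascade, had log2 ratios of -4.09, -6.04, -5.94 and -4.87 over the arrays. TAM-2R and TAM-3 were the lowest pair and all 4 lay well apart from 0. Its mean was -5.23 ± 0.93 (SD, n = 4), 37.6-fold lower, with an adjusted p of 0.00042.

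Slpi, an inhibitor of neutrophil serine proteases, had log2 ratios of -2.12, -6.04, -4.77 and -4.30 and a mean of -4.31 ± 1.64 (SD, n = 4, adjusted p = 0.0122). Cd5l, a secreted scavenger-receptor protein that inhibits apoptosis of macrophages, had log2 ratios of -0.93, -4.91, -5.05 and -4.44 and a mean of -3.83 ± 1.95 (SD, n = 4, adjusted p = 0.0352). For both genes TAM-b stood nearest to 0 while the other three arrays lay several units lower.

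F7, the coagulation protease factor VII, had log2 ratios of -2.23, -2.39, -4.08 and -3.20 in array order. The arrays ran in one direction with TAM-3 the lowest, and the mean was -2.97 ± 0.85 (SD, n = 4, 7.86-fold lower, adjusted p = 0.00997). Serpinb2, an inhibitor of urokinase, did not pass, with a mean of -2.41 and an adjusted p of 0.0546.

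Of the 15 measured genes of a peritoneal macrophage list, 4 were called lower (Saa3, Fcna, Slpi and Cd5l) and 0 higher, and 9 lay below 0 on 4 of 4 arrays (60% against 11.1% of all named genes). Means lay below 0 for 10 members and above 0 for 5. Rarb was the 1 member above 0 on all arrays, with a mean of 2.37 (adjusted p = 0.142). The list's median log2 ratio was -1.33, against -0.02 for all named genes, and its array medians ran from -2.39 on TAM-3 to -0.37 on TAM-b. The list was chosen with earlier results of these data known, so its share and median may partly restate that choice. Gata6, the transcription factor that defines resident large peritoneal macrophages, had a mean of -0.52 with an adjusted p of 0.528, and Icam2, a surface adhesion molecule of the same cells, one of -1.59 with an adjusted p of 0.138. Fewer cells that make a transcript and less of it in each cell cannot be told apart in such RNA.

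Among markers of alternative activation Retnla was lower in TAM. Retnla (Entrez 57262), a small secreted protein induced by interleukin-4 and widely used as an M2 marker, had log2 ratios of -3.18, -5.47, -5.88 and -5.71 in array order. The last 3 agreed closely and TAM-b was nearer 0. The mean was -5.06 ± 1.26 (SD, n = 4), 33.4-fold lower in TAM, with an adjusted p of 0.0015.

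Retnla was the only one of 20 measured genes of an alternative activation list that passed. The list's median was -0.58, with 15 of 20 means below 0, against 3476 of 6795 among all named genes. On 4 of 4 arrays 5 lay below 0 (25% against 11.1% of all named genes) and 0 above 0 (against 9.23%). Igf1, a growth factor made by macrophages, and Tgm2, a transglutaminase, did not pass, with means of -2.29 (adjusted p = 0.0734) and -1.63 (adjusted p = 0.123). Mrc1, the mannose receptor, had log2 ratios of -1.56, -1.15, -0.30 and 0.38, and Chil3, a chitinase-like secreted protein, had -0.78, -0.95, -0.69 and 0.86, so both overlapped 0 (adjusted p = 0.456 and 0.79). Vegfa, the angiogenic growth factor, had a mean of -1.12 (adjusted p = 0.192), with -1.41 and -0.83 for its separate features.

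Genes of classical activation had no call. Over 13 measured genes the median was 0.00. On 4 of 4 arrays 2 lay above 0 (Cxcl10 and Ccl5, 15.4% against 9.23% of all named genes) and 1 below 0 (Tnf, 7.69% against 11.1%). Tnf, the inflammatory cytokine, had log2 ratios of -1.39, -1.69, -0.15 and -1.38, with an adjusted p of 0.33. Il1b changed sign between arrays (2.06, -2.07, 2.67 and -0.18, adjusted p = 0.734), as did Nos2, the inducible nitric oxide synthase (-0.54, -1.83, 0.92 and -1.30, adjusted p = 0.623). Il12b and Tgfb1 had means of 0.00 and 0.59 with 2 arrays on each side of 0. Of a panel of 20 genes of macrophage states, 14 were measured with 1 symbol.

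Among 21 measured NF-kB inflammatory genes, 2 were called lower (Plaur and Saa3), the median was -0.43 and the array medians ran from -1.39 on TAM-2R to 0.14 on TAM-b. With TAM-2R left unturned the list's median became 0.18. Gadd45b, a stress-induced gene of the list, had a mean of -1.67 and an adjusted p of 0.165.

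Genes of lipid uptake and transfer gave 4 calls, all lower in TAM. Pltp (Entrez 18830), which moves phospholipid between lipoproteins, had log2 ratios of -3.47, -3.33, -2.39 and -3.01 in array order. The 4 values lay close together, and the mean was -3.05 ± 0.48 (SD, n = 4, 8.27-fold lower, adjusted p = 0.00219). Lpl, the lipase that frees fatty acids from lipoproteins, had -4.33, -2.31, -4.51 and -4.25, with TAM-2R nearer 0 than the rest, and a mean of -3.85 ± 1.03 (SD, n = 4, adjusted p = 0.006).

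The fatty acid carriers Fabp4 and Fabp5 were both lower in TAM, in a different order over the arrays. Fabp4 had log2 ratios of -2.38, -4.75, -4.61 and -1.63 (mean -3.34 ± 1.57, SD, n = 4, adjusted p = 0.0332). Fabp5 had -3.70, -2.66, -1.10 and -4.27 (mean -2.93 ± 1.39, SD, n = 4, adjusted p = 0.0367). TAM-8 held the value of Fabp4 nearest to 0 and the value of Fabp5 farthest from it.

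These were 4 of 23 measured genes of the lipid uptake and transfer list, and 0 were higher. On 4 of 4 arrays 8 lay below 0 (34.8% against 11.1% of all named genes) and 4 above 0 (17.4% against 9.23%). The median was -0.34. Those above 0 on each array were Abcg1, Scarb1, Npc2 and Sorl1, of which Abcg1 and Scarb1 carry cholesterol across the membrane and Npc2 binds it in the lysosome. Smpdl3a, a secreted phosphodiesterase of the sphingomyelinase family, was lower as well, at -2.07, -1.82, -2.83 and -2.54 (mean -2.31 ± 0.45, SD, n = 4, adjusted p = 0.0317).

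Of the lysosomal proteases, 2 were lower. Ctsb, a cysteine cathepsin, had log2 ratios of -2.40, -2.10, -1.31 and -2.44 (mean -2.06 ± 0.52, SD, n = 4, adjusted p = 0.0367). Ctsd, the aspartic cathepsin, had -2.90, -1.69, -1.52 and -2.37 (mean -2.12 ± 0.64, SD, n = 4, adjusted p = 0.0367). Both were nearest 0 on TAM-3 and clear of it on every array.

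These were the 2 calls among 14 cathepsins and lysosomal proteases. On 4 of 4 arrays 5 lay below 0 (35.7% against 11.1% of all named genes) and 0 above 0 (against 9.23%). The list's median was -0.29. That median was -1.05 on TAM-8 and 0.23 on TAM-2R, and it was -0.04 without TAM-8, -0.12 without TAM-b, -0.49 without TAM-2R and -0.57 without TAM-3. Ctso, another cysteine cathepsin, had a mean of -1.03 (adjusted p = 0.188). Of 28 lysosomal hydrolases and membrane proteins 0 passed and 20 means lay below 0, against 3476 of 6795 among all named genes. Their median was -0.57, while the array medians reached from -1.10 on TAM-b to 0.11 on TAM-3. In that list the values were -2.34 for Igf2r, the receptor that delivers enzymes to lysosomes (adjusted p = 0.0595), -1.24 for Glb1, a galactosidase (adjusted p = 0.114), and -1.20 for Atp6v1e1, a subunit of the proton pump (adjusted p = 0.182).

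Among genes of proteolysis at the cell surface, Plaur, the receptor that concentrates urokinase on the membrane, had log2 ratios of -2.60, -2.71, -2.21 and -1.91. The arrays differed little among themselves, and the mean was -2.36 ± 0.36 (SD, n = 4, 5.13-fold lower in TAM, adjusted p = 0.0106). Sdc1, a heparan sulfate proteoglycan that binds growth factors and matrix, had -2.47, -4.44, -2.44 and -3.51 (mean -3.21 ± 0.95, SD, n = 4, adjusted p = 0.012), with TAM-2R the lowest.

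Of 21 measured genes of pericellular proteolysis, Plaur alone passed, and the median was -0.42. On 4 of 4 arrays 7 lay below 0 (33.3% against 11.1% of all named genes). Above 0 lay 2, Mmp9 and Mmp14 (9.52% against 9.23%). Mmp12, the macrophage elastase, had a mean of -2.42 with an adjusted p of 0.0892. With TAM-2R unturned the list's median was 0.11. Of 15 integrin and adhesion genes 0 passed and the median was -0.41. On all 4 arrays 5 lay below 0 (33.3% against 11.1% of all named genes) and 2 above 0 (13.3% against 9.23%). The integrin chains Itga5 and Itgb1 had means of -1.50 (adjusted p = 0.126) and -1.85 (adjusted p = 0.149).

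Signalling proteins and transcription factors were also among the lower calls. Plk2, a stress-responsive kinase, had log2 ratios of -3.71, -1.98, -2.69 and -3.23 (mean -2.90 ± 0.75, SD, n = 4, adjusted p = 0.0122). Plek, the main protein kinase C substrate of platelets and leukocytes, had -2.15, -3.05, -1.59 and -2.35 (mean -2.28 ± 0.60, SD, n = 4, adjusted p = 0.0227). Their order over the arrays differed, Plk2 being lowest on TAM-b and Plek on TAM-2R.

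Bhlhe40, a transcriptional repressor, had a mean of -2.20 ± 0.91 (SD, n = 4, adjusted p = 0.041). Tle5, a corepressor of the Groucho family, had a mean of -2.36 ± 1.07 (SD, n = 4, adjusted p = 0.0412), with -0.87 on TAM-b against -3.43 to -2.57 on the others. Rhob, a small GTPase of endosomes, had a mean of -2.42 ± 0.53 (SD, n = 4), and Mdm2, the ubiquitin ligase of p53, one of -1.70 ± 0.29 (SD, n = 4), each with an adjusted p of 0.0412. P2ry2, the receptor for extracellular ATP and UTP, was lower by a mean of -1.80 ± 0.27 (SD, n = 4, adjusted p = 0.0352), the second narrowest spread among these 27 genes after Slc2a1.

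Of the 4 measured Id genes, inhibitors of basic helix-loop-helix factors, Id2 was lower and Id3 higher in TAM. Id2 had log2 ratios of -2.40, -2.09, -1.65 and -3.07 in array order (mean -2.30 ± 0.60, SD, n = 4, adjusted p = 0.0412). Id3 had 1.92, 3.55, 2.84 and 1.51 (mean 2.46 ± 0.91, SD, n = 4, adjusted p = 0.0379). No array of one overlapped an array of the other. Id1 and Id4, named after their values were seen, did not pass, with means of 0.50 (adjusted p = 0.494) and 1.12 (adjusted p = 0.525). Of 28 measured Id, immediate early and stress transcription factors Id2 and Id3 were the 2 that passed, and the median was -0.34. On 4 of 4 arrays 8 lay below 0 (28.6% against 11.1% of all named genes) and 3 above 0 (10.7% against 9.23%). Atf4, a factor of the stress response, had a mean of -1.60 and an adjusted p of 0.159.

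Of metabolic genes, Slc2a1, the glucose transporter GLUT1, had log2 ratios of -2.26, -2.35, -2.14 and -1.76 (mean -2.13 ± 0.26, SD, n = 4, 4.37-fold lower, adjusted p = 0.0331). The 4 arrays agreed to within a unit. It was the 1 call among 19 glycolysis and hypoxia genes, whose median was -0.21 and turned to 0.08 with TAM-2R unturned and to 0.06 without TAM-b. P4ha2, a collagen prolyl hydroxylase of that list, had a mean of -1.14 (adjusted p = 0.192). Nnmt, which methylates nicotinamide, was lower at -1.88 ± 0.32 (SD, n = 4, adjusted p = 0.0412), and Ms4a8a, a membrane protein with several spans, at -2.41 ± 1.04 (SD, n = 4, adjusted p = 0.0421).

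Chemokine ligands were mixed. Ccl6, a monocyte-attracting chemokine, had log2 ratios of -3.61, -2.73, -2.70 and -3.96 and was 9.51-fold lower in TAM (mean -3.25 ± 0.64, SD, n = 4, adjusted p = 0.00997). TAM-b and TAM-8 were the lower pair. Of the 25 measured ligands it was the only one that passed. On every array 4 lay above 0 (16% against 9.23% of all named genes), which were Ccl5, Ccl8, Ccl12 and Cxcl10. Below 0 lay 3 (12% against 11.1%), which were Ccl6, Ccl9 and Cxcl12. Ccl9, a close relative of Ccl6, had a mean of -1.81 (adjusted p = 0.0922), and Ccl5, which attracts T cells, one of 1.42 (adjusted p = 0.221). Cxcl9 had -0.73, 0.16, 1.32 and 0.70 (adjusted p = 0.641).

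None of 23 measured chemokine and cytokine receptors passed, and their median was -0.43. The values were -1.74 for Ccr7, which guides cells to lymph nodes (adjusted p = 0.123), -1.41 for Il17ra, the interleukin-17 receptor (adjusted p = 0.145), and -1.36 for Cxcr5, the follicle-homing receptor (adjusted p = 0.171). On 4 of 4 arrays 6 receptors lay below 0 (26.1% against 11.1% of all named genes). Above 0 lay 2 (8.7% against 9.23%), which were Cx3cr1 and Ifngr1.

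Of the genes higher in TAM, Cd81 (Entrez 12520), a tetraspanin that organises receptors in the membrane, had log2 ratios of 3.07, 3.48, 3.78 and 3.25 in array order. The 4 values lay within 1 unit of each other, and the mean was 3.39 ± 0.31 (SD, n = 4, 10.5-fold higher, adjusted p = 0.00134). Cd81 was the only call among 12 tetraspanins, whose median was -0.07. Cd53, a tetraspanin of leukocytes, had -2.71, -1.04, -2.01 and -2.81 (mean -2.14, adjusted p = 0.0595), and Tspan3 had a mean of -0.60 (adjusted p = 0.494).

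Fcrls, a scavenger-type relative of the Fc receptors, had log2 ratios of 1.76, 3.42, 4.10 and 2.57 and a mean of 2.96 ± 1.02 (SD, n = 4, 7.80-fold higher, adjusted p = 0.0225). TAM-3 and TAM-2R were the highest. Of 6 measured Fc receptor genes it alone passed, and with it Fcgr1, the high-affinity IgG receptor, and Fcer1g, the shared signalling chain, lay above 0 on all 4 arrays, with means of 1.10 (adjusted p = 0.232) and 0.86 (adjusted p = 0.332). These 3 were 50% of the list, against 9.23% of all named genes, and the list's median was 0.54.

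Of the genes for the recognition of dying cells, C1qa and Axl were higher. C1qa, a chain of the complement starter C1q, had log2 ratios of 2.23, 1.50, 2.33 and 2.42 (mean 2.12 ± 0.42, SD, n = 4, 4.35-fold higher, adjusted p = 0.0412). Axl, a receptor kinase that binds apoptotic cells through Gas6, had 1.71, 3.14, 2.58 and 1.31 (mean 2.18 ± 0.83, SD, n = 4, adjusted p = 0.0451). Both were above 0 throughout, C1qa lowest and Axl highest on TAM-2R.

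C1qc had a mean of 1.58 (adjusted p = 0.0853), and C1qb, named here after its values were seen, one of 1.15 (adjusted p = 0.194), each above 0 on 4 of 4 arrays. Mfge8, which bridges apoptotic cells to integrins, had -3.93, -2.53, -2.14 and -2.13 (mean -2.68, adjusted p = 0.0595). Of 19 measured genes of apoptotic cell uptake 2 were higher and 0 lower. On all arrays 5 lay above 0 (26.3% against 9.23% of all named genes) and 5 below 0 (26.3% against 11.1%). Their median of 0.20 became -0.10 with TAM-2R unturned. Of 14 complement genes 1 was higher (C1qa) and 1 lower (Fcna), and their median was -0.01.

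Of the interferon-responsive genes, Ly6e and Irf7 passed. Ly6e, a membrane protein induced by interferon, had log2 ratios of 2.03, 2.74, 2.90 and 3.36 (mean 2.76 ± 0.55, SD, n = 4, 6.76-fold higher, adjusted p = 0.0152). Irf7, the factor that amplifies type I interferon production, had 1.94, 1.83, 2.95 and 2.65 (mean 2.34 ± 0.55, SD, n = 4, 5.08-fold higher, adjusted p = 0.0412). TAM-3 and TAM-8 were the higher pair for both.

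Cxcl10, the interferon-induced chemokine for T cells, had 3.47, 2.68, 3.08 and 1.40 (mean 2.66 ± 0.90, SD, n = 4) and missed the threshold with an adjusted p of 0.0505. Of 34 measured interferon response genes 2 were higher and 0 lower, 10 lay above 0 on 4 of 4 arrays (29.4% against 9.23% of all named genes) and 1 below (2.94% against 11.1%). The list's median was 0.27 and its array medians ran from -0.04 on TAM-8 to 0.78 on TAM-3.

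The remaining higher genes had other roles. Igfbp4, a secreted binder of insulin-like growth factors, had log2 ratios of 1.02, 2.48, 2.19 and 3.10 (mean 2.20 ± 0.87, SD, n = 4, adjusted p = 0.0412). It was measured by 2 features with means of 2.18 (adjusted p = 0.0389) and 2.21 (adjusted p = 0.0767), and it was the 1 call among 31 genes of growth factors and the IGF axis, whose median was 0.06. Nubp1, a protein of cytosolic iron-sulfur cluster assembly, had 1.66, 2.39, 2.36 and 1.35 (mean 1.94 ± 0.52, SD, n = 4, adjusted p = 0.0451).

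Mcm5, a subunit of the replicative helicase, had 1.15, 1.82, 2.55 and 1.60 (mean 1.78 ± 0.58, SD, n = 4, adjusted p = 0.0412). It was the only call among 56 measured genes of the cell cycle and DNA replication, whose median was 0.36. A mean above 0 was found for 40 of the 56, against 3319 of 6795 among all named genes. On all 4 arrays 10 lay above 0 (17.9% against 9.23% of all named genes) and 3 below (5.36% against 11.1%). Ccnd1 and Plk1, a cyclin and a mitotic kinase, had means of 2.10 and 1.96 (adjusted p = 0.0784 for each). TAM-b was the array on which that list's median lay below 0, at -0.13.

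Leaving out 1 of the 4 untreated arrays moved many list medians. That of the peritoneal macrophage list ran from -1.55 to -0.98, that of the cell cycle list from 0.31 to 0.42 and that of alternative activation from -0.73 to -0.36. The interferon list ran from 0.12 (without TAM-3) to 0.44 (without TAM-2R), the lysosomal hydrolases from -0.68 (without TAM-3) to -0.28 (without TAM-b) and lipid uptake and transfer from -0.49 (without TAM-2R or TAM-3) to -0.20 (without TAM-8). Without TAM-2R the medians were -0.15 for the NF-kB genes, -0.13 for pericellular proteolysis, -0.16 for the receptors and -0.18 for the Id and stress factors. Without TAM-8 that of the integrins was -0.21, and that of the Fc receptors was 0.30 without TAM-b and 0.84 without TAM-3.

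**Figure D2:**
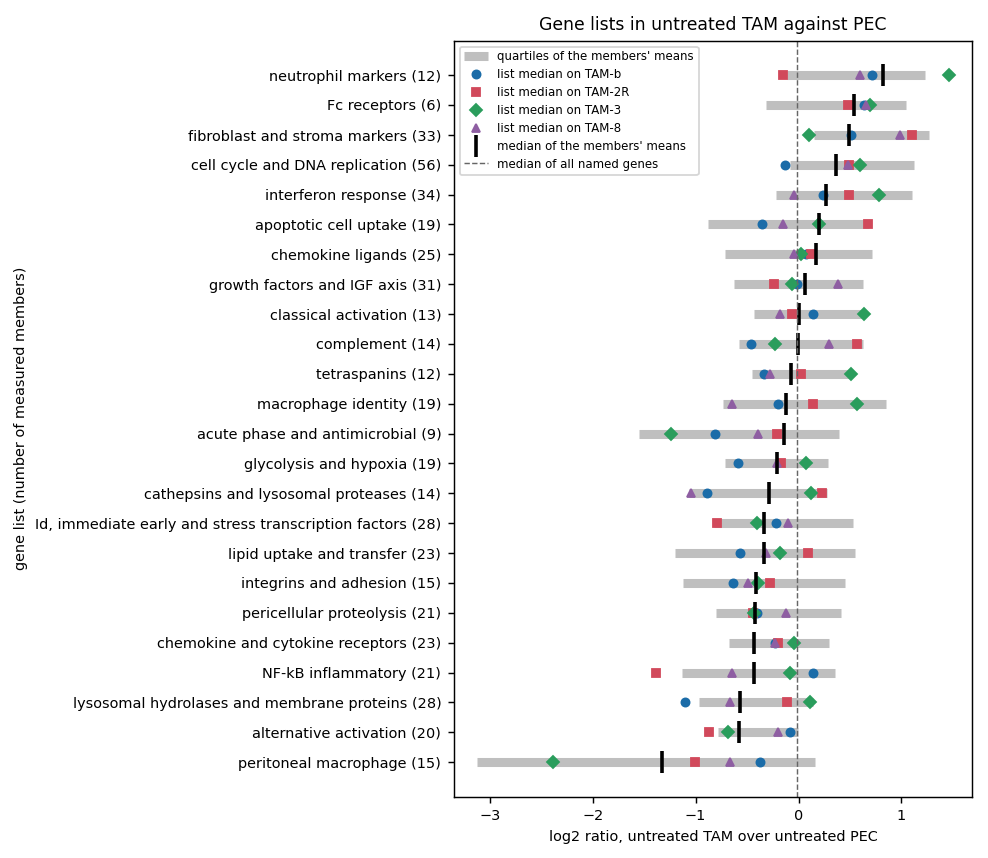
Median log2 ratio of untreated TAM over untreated PEC (x axis) of 24 gene lists (y axis, with the number of measured members), with grey bars for the quartiles of the members' means, a black bar for their median and 1 point for the list's median on each array. The peritoneal macrophage list lies lowest, at -1.33, and all 4 of its array medians lie below 0. For most other lists the 4 arrays spread over 0.

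Markers of macrophages did not set TAM against PEC in one direction. Of 19 measured macrophage identity genes 0 passed and the median was -0.12. On every array 5 lay above 0 (26.3% against 9.23% of all named genes) and 5 below 0 (26.3% against 11.1%). Aif1, a calcium-binding protein of macrophages, had a mean of 2.75 (adjusted p = 0.0686), Cx3cr1, the fractalkine receptor, one of 1.70 (adjusted p = 0.214) and Lyz2, the lysozyme of myeloid cells, one of -1.55 (adjusted p = 0.232). Cd68 had -2.48, -1.05, -0.14 and -3.29 (adjusted p = 0.241), and Adgre1 and Itgam, which encode F4/80 and CD11b, had means of -0.93 and -0.41 with adjusted p-values of 0.478 and 0.691. A ratio does not show how strongly a marker was expressed in either cell type.

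Markers of other cells stood beside these results. Of 33 measured fibroblast and stroma genes 1 was called higher (Igfbp4) and the median was 0.49. Means lay above 0 for 26 of them, against 3319 of 6795 among all named genes. On all 4 arrays 9 lay above 0 (27.3% against 9.23% of all named genes) and 2 below (6.06% against 11.1%). Ccn1, a matrix-associated growth regulator, had a mean of 2.55 (adjusted p = 0.0686), and Eln, elastin, one of -1.92 (adjusted p = 0.0753). Sparc, a collagen-binding matrix protein named after its values were seen, had a mean of 4.23 ± 3.46 (SD, n = 4, adjusted p = 0.123) and was highest on TAM-3.

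Of 12 neutrophil markers 0 passed. On every array 4 lay above 0 (33.3% against 9.23% of all named genes) and 0 below 0 (against 11.1%). The median was 0.82, which was 0.33 without TAM-3. TAM-2R alone had a median of -0.15. S100a9 had a mean of 1.92 (adjusted p = 0.122), the granule protein gene Ngp had 2.12, 0.56, 6.21 and 1.11 (adjusted p = 0.221) and Padi4 had a mean of 2.66 (adjusted p = 0.232). For 7 other lists of cell types, with 87 measured genes, medians lay between -0.52 and 0.33 and 1 gene was called, Sdc1, which also marks plasma cells. The part of these markers in the genes higher or lower in TAM was not tested.

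The TAM to PEC ratio was measured a second time, with both cell types given LPS, on TAM1 and TAM7. All 30 lower genes or features lay below 0 on both of these arrays, and 7 of the 11 higher ones lay above 0 on both. Among all genes or features, 35.4% had the sign of their untreated mean on both, and 41.8% of those with 1 sign on the 4 untreated arrays. The median of the 30 was -2.42 untreated and -3.01 with LPS, and that of the 11 was 2.34 untreated and 0.65 with LPS. Each of the 11 was nearer 0 with LPS, whereas of the 30 lower ones 16 were nearer and 14 farther. The calls were chosen for their untreated ratios, and ratios so chosen tend to lie nearer 0 on other arrays. These medians and counts are therefore not read as an effect of LPS. TAM1 was turned like TAM-2R, so its signs rest on the same reading of the channels.

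Among the lower genes, Fcna stood at -5.06 on TAM1 and -4.93 on TAM7 (mean -5.00, adjusted p = 0.00754). Pltp stood at -4.17 and -3.92 and Plaur at -4.59 and -3.71, both past the threshold with LPS (adjusted p = 0.00754 for each). These were the 3 of the 41 among the 6 genes or features called with LPS (0.0674% of all). Retnla had -3.81 and -4.46, with an adjusted p of 0.0529. Saa3 had -2.70 and -4.43, a mean 3.04 ± 0.83 (SE) nearer 0 than without LPS (unadjusted p = 0.00451, adjusted p = 0.698).

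The 4 higher genes without a positive value on both LPS arrays were Irf7, Ly6e, Nubp1 and Id3. Irf7 lay at -2.10 and -0.65 on TAM1 and TAM7, a difference of -3.72 ± 0.68 (SE) from the untreated mean (unadjusted p = 0.000277, adjusted p = 0.416). Ly6e lay at -0.83 and 0.69, a difference of -2.83 ± 0.64 (SE, adjusted p = 0.698). Cd81 remained above 0 at 1.68 and 1.53, and Fcrls at 2.47 and 3.08.

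Cxcl10 had -1.81 and -1.79 with LPS, a difference of -4.46 ± 0.82 (SE, unadjusted p = 0.000306, adjusted p = 0.416). Cxcl10 and Irf7 were among 367 genes or features (4.12%), and among 291 named genes (4.28%), that lay on one side of 0 on all 4 untreated arrays and on the other side on both LPS arrays. Across all genes the test of this difference gave 0 calls, with a lowest adjusted p of 0.241 and 623 at an unadjusted p under 0.05 (7% of all). Without TAM7 it gave 2 calls, but the LPS group is then TAM1 alone, which the fit assumes to vary like the other groups. 

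**Figure D3:**
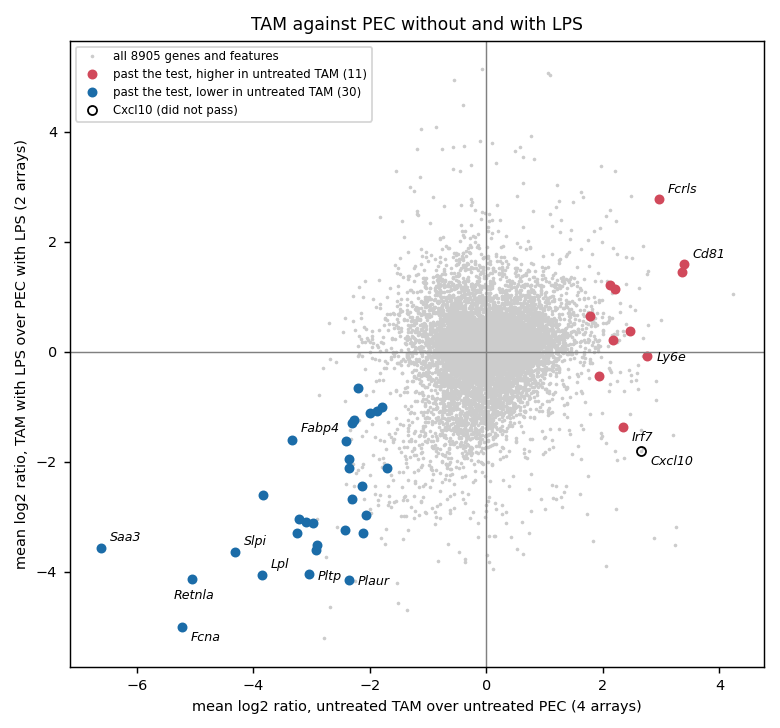
Mean log2 ratio of TAM over PEC without LPS (x axis, 4 arrays) against that with LPS (y axis, TAM1 and TAM7) for all 8905 genes or features (grey), with the 11 higher and 30 lower calls of the untreated comparison in colour. All 30 lower points have both means below 0, and Irf7 and Cxcl10 lie above 0 untreated and below 0 with LPS.

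Over the 34 interferon response genes the median was 0.27 untreated and -1.24 with LPS. Of the 20 with an untreated mean above 0, 19 had a mean below 0 with LPS, against 1302 of 3319 among all named genes. The same held for 14 of 14 cytosolic ribosomal protein genes and 19 of 22 oxidative phosphorylation genes. The ratio of the interferon response genes was lower with LPS in 30 of 34 (88.2% against 52.1% of all named genes). Unadjusted p-values of the difference were under 0.05 in 16 of 34, and none passed after adjustment (lowest 0.416). Lgals9, a galectin outside that list, had the smallest p of the difference, with 1.37, 0.55, 1.41 and 1.23 untreated and -2.71 and -2.62 with LPS (difference -3.81, adjusted p = 0.241).

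Some lists with other functions had lower ratios with LPS as well, and others did not. All 26 cytosolic ribosomal protein genes had a lower ratio with LPS (median 0.07 untreated and -1.03 with LPS), as did 30 of 33 oxidative phosphorylation genes (0.29 and -0.87) and 27 of 29 proteasome genes (-0.12 and -1.13). The NF-kB inflammatory list went from -0.43 to -1.50 and the classical activation list from 0.00 to -1.28. No gene of these lists passed the test of the difference. The ratio was lower with LPS in 30% of the alternative activation genes, in 33.3% of the peritoneal macrophage genes, in 33.3% of the acute phase genes and in 28.6% of the epithelial and mesothelial genes. The median of the fibroblast and stroma list was 0.49 and 0.50, and the median of all named genes was -0.02 and 0.07. On TAM1 and TAM7 singly the interferon list had medians of -1.40 and -1.18 and the ribosomal list -1.30 and -0.96. Over all features TAM1 correlated at -0.357 with PEC1 and -0.291 with PEC2, and TAM7 at -0.112 and -0.172. PEC with LPS is the denominator on TAM1 and TAM7 and the numerator on PEC1 and PEC2. Whether this bears on the shifts of the lists was not tested. The part of these shifts in the values of Irf7, Ly6e and Cxcl10 was not tested.

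**Figure D4:**
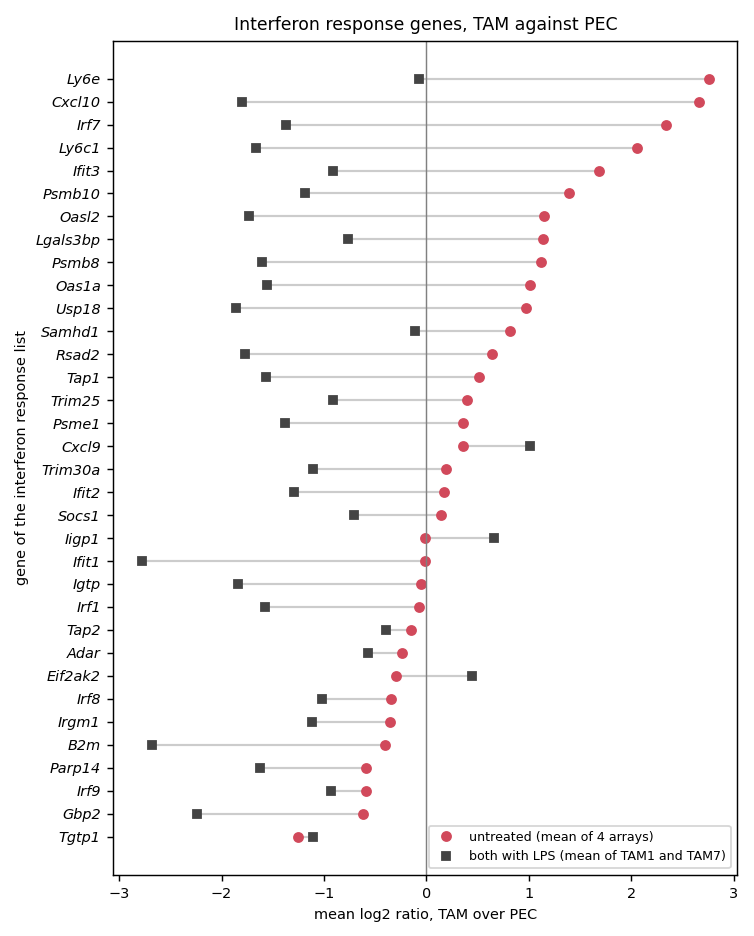
Mean log2 ratio of TAM over PEC (x axis) for the 34 measured interferon response genes (y axis), untreated (red circles, 4 arrays) and with LPS in both cell types (dark squares, TAM1 and TAM7), joined by a line for each gene. Of the 20 genes above 0 untreated, 19 are below 0 with LPS, and Cxcl9 is the exception. Among all named genes 1302 of 3319 crossed in this way.

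The 4 untreated arrays resembled each other little over all features. Pearson's r between them ran from 0.036 (TAM-2R and TAM-3) to 0.329 (TAM-b and TAM-8). TAM-8, the 1 array of the 4 on print v9p2, correlated at 0.568 with TAM7 and 0.52 with TAM-trial, which were on the same print but compared other conditions, and TAM-b at 0.379 with TAM-trial. Feature position, taken modulo 96 in the numbering, accounted for between 8.32% (TAM-3) and 49.1% (TAM-b) of the variance of the 4 arrays. These correlations are over features that share spots, print and array, and are given as a description.

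**Figure D5:**
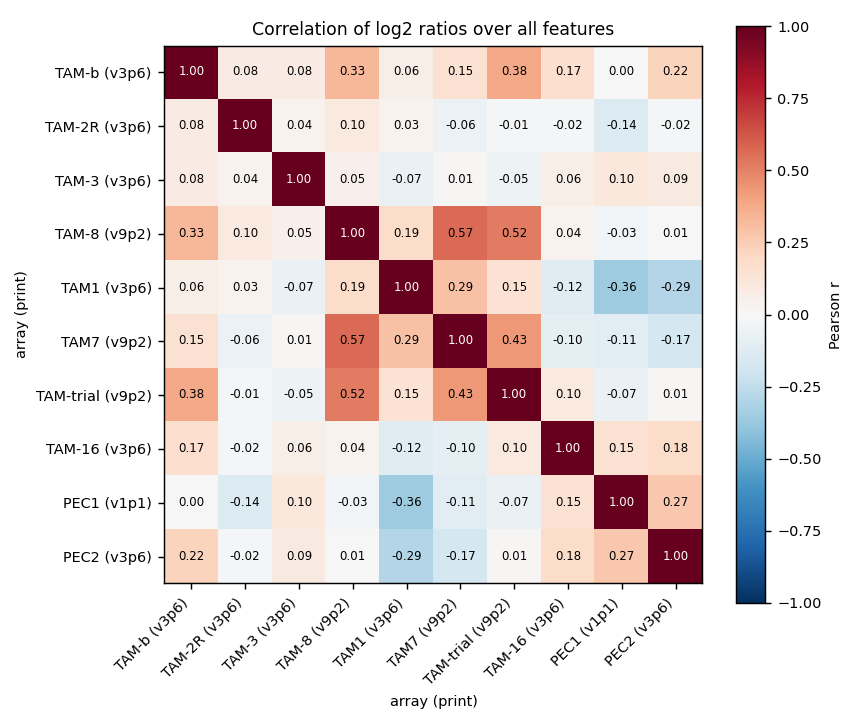
Pearson correlation of the log2 ratios over all 9596 features between the 10 arrays, with the print version in brackets on both axes and colour from -1 (blue) to 1 (red). The 4 untreated arrays reach at most 0.33 with each other, while TAM-8 reaches 0.57 with TAM7.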

How the data were processed

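Total RNA of 2 conditions was hybridised to each of 10 spotted cDNA arrays. The values deposited by the authors are 1 log ratio for each feature of an array, taken here as log2. How images were quantified, corrected and normalized, the dyes and the log base: not given in the sources used here. No intensities were used, so no dim spots could be left out. No value was missing among the 9596 features. Features were named from GEO's platform annotation (7486 with 1 symbol, 483 with several, 1627 with none), and features of 1 gene were averaged (631 genes). Within an array, 2 features of 1 gene hardly correlated (r of 0.054, 0.039, 0.062 and -0.006 on TAM-b, TAM-2R, TAM-3, TAM-8), a limit on every gene name printed, which was not checked further. Ratios were read as channel 2 over channel 1, and TAM-2R and TAM1, whose labels exchange the channels, were turned. The array medians lay between -0.199 and 0.067 after turning. No array was rescaled.

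Limma 3.58.1 in R 4.3.3 (lmFit, eBayes) was fitted to all 10 arrays with 1 mean for each of 4 direct comparisons (6 residual and 3.84 prior degrees of freedom). Two-sided p-values were adjusted by Benjamini-Hochberg over 8905 genes or features, with a threshold of 0.05. The difference with LPS was a contrast of the same fit. The script was tested on simulated data. Named genes were all calls, genes with an adjusted p up to 0.06, the 3 smallest p-values of each list described, a panel of 20 macrophage genes and the 5 smallest p-values of the difference with LPS. Members named beside a count, and Gata6, were named after their values were seen. The members, the 42 gene lists and these rules were chosen with earlier results of these data known. Leaving out each array, coding of the exchanged arrays, dye terms, print, scaling, centring, feature position, feature averaging, weights and loop fits were tried as alternatives.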

Additional observations from a re-analysis of the deposited data

Results flagged for a closer look

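For 10 of the 93 named genes every untreated array lay on one side of 0 and both LPS arrays on the other, as they did for 367 of all 8905 genes or features (4.12%). The 93 include 5 genes chosen for the smallest p of this difference, among them Lgals9, Irf7, Tbx6 and Snx30, so nothing is read from that count. The mean log2 ratio of TAM over PEC with LPS less that without was -4.46 for Cxcl10, -4.21 for Tbx6, -3.81 for Lgals9, -3.72 for Irf7, -2.85 for Ccl5 and -2.23 for Fcgr1, which were above 0 untreated. It was 4.18 for Snx30, 1.96 for F13a1, 1.67 for Ctso and 1.46 for P4ha2, which were below 0 untreated. The difference was tested in limma, and none of the 10 passed after adjustment (adjusted p from 0.241 for Lgals9 to 0.698). Cxcl10 and Irf7 are induced by interferon, F13a1 is a coagulation transglutaminase of monocytes, and Snx30 is a sorting nexin.

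For 7 of 93 named genes 1 of the 4 untreated arrays stood apart from the rest. Chance gives such a gap in about 1 of 20 groups. TAM-b stood at -0.93 for Cd5l (others -5.05 to -4.44) and at -3.18 for Retnla (others -5.88 to -5.47), and without it their means were -4.80 and -5.69, each with an adjusted p of 0.000445. TAM-b was picked here because it stood apart, and leaving out such an array narrows the spread, so these p-values are not read as support. Of the 10 fits that left out an array, Cd5l passed in this 1 only (highest adjusted p 0.14) and Retnla in all 10. TAM-2R stood at -2.31 for Lpl (others -4.51 to -4.25) and at -2.64 for Il17ra (others -1.11 to -0.83). TAM-8 stood at 0.86 for Chil3 (others -0.95 to -0.69), at -3.37 for Selenop, a selenium transport protein (others -2.02 to -1.78), and at 0.87 for Tbx6 (others 2.57 to 2.81).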

How the results depend on the processing

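The 41 calls (11 higher, 30 lower) became 0 with TAM-2R and TAM1, or TAM-2R alone, left unturned (0 higher, 0 lower) and 0 with the arrays of print v3p6 only (0 and 0; 513 at an unadjusted p under 0.05). The count was 17 with a dye term (3 higher, 14 lower), 26 in a loop fit with a dye term (8 and 18), 12 with scaled arrays (3 and 9), 2 with the 4 untreated arrays alone (0 and 2) and 28 with array weights (5 and 23). Not all of these were among the 41. Shared with the 41 were 16 with a dye term, 19 in that loop fit, 12 with scaled arrays, 2 with the 4 arrays alone and 27 with array weights. With a dye term for each print, added after the data had been seen, 4 passed (1 and 3). Leaving out each array gave 6 to 24 calls, 1 to 8 higher and 5 to 20 lower, and 0 to 2 for the difference with LPS, which gave 0 under every other setting that could be run for it (not the 4 untreated arrays alone). The cause was not tested, except that fewer arrays leave fewer degrees of freedom. The other settings gave 33 to 45 calls. Shared with the 41 were 31 of the 45 calls of the loop fit, 26 of the 33 with place medians subtracted and all 36 with centred arrays. Without TAM-b 18 of 23 calls were shared. All 37 named calls kept their sign under every setting run gene by gene. For settings that only left out, weighted or scaled arrays, their 1 sign on the 4 untreated arrays fixed this in advance. In 520 of 887 pairs of a call and a setting the call was lost.

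No paired analysis was possible because the arrays of different comparisons share no replicate numbers that pair RNA samples.

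Means near 0 changed sign: Chil3 to 0.09 and Nos2 to 0.23 with TAM-2R unturned, with or without TAM1, Chil3 to 0.02 with array weights, and Il1b to -0.07 without TAM-3 (up to 1.51 without another array). Tgfb1 became -0.07 with a dye term, -0.19 in the loop fit with a dye term, -0.39 with place medians subtracted and -0.23 with a dye term for each print. Il12b was 0.23, 0.05 and 0.09 under these dye settings (single, loop, each print), 0.06 scaled, 0.02 centred, 0.31 with weights, 0.03 without TAM-b and 0.37 without TAM-3 (-0.26 at the lowest, without TAM-8). The unknown gene 0610009E02Rik, chosen by its difference with LPS, became 0.14 in the loop fit and 0.56 with a dye term added to it. Of the list medians, that of the chemokine ligands became -0.01 without TAM-b or TAM-8, that of macrophage identity 0.06 without TAM-8, that of the acute phase genes (9 measured, 2 lower, -0.14) 0.02 in the loop fit with a dye term, and those of complement, growth factors and tetraspanins, all within 0.1 of 0, changed sign under several settings.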

Other observations

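Genes of antigen presentation had no call. Of 10 measured genes of the MHC class I pathway 4 lay above 0 on 4 of 4 untreated arrays (40%), among them Psmb8 and Psmb10, subunits of the immunoproteasome, with means of 1.12 (adjusted p = 0.221) and 1.39 (adjusted p = 0.168), and the median was 0.44 untreated and -0.96 with LPS. Of 11 MHC class II genes 2 lay above 0 on all arrays, H2-Aa and H2-Eb1 (18.2%), and 1 below (9.09%), H2-Ob, which encodes a chain of an inhibitor of peptide loading. Of all named genes 9.23% lay above and 11.1% below 0 on all 4. These genes were named after their values were seen.

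Other genes just outside the threshold were Gstm1, a glutathione transferase (-1.69, adjusted p = 0.0595), Selenop (-2.28, adjusted p = 0.0547), F13a1 (-1.52, adjusted p = 0.0595) and the predicted gene Gm11223 (2.15, adjusted p = 0.0546). Nubp1 and Axl were closest inside it (adjusted p = 0.0451 for each).

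The feature annotated as Tbx6, a T-box factor of the embryonic mesoderm, followed Cxcl10 over all 10 arrays. Its log2 ratios were 2.81, 2.57, 2.70 and 0.87 on the untreated arrays (TAM-b, TAM-2R, TAM-3, TAM-8), -1.95 and -1.98 on TAM1 and TAM7, 2.89 and 3.65 on PEC1 and PEC2 and 1.80 and 4.02 on TAM-trial and TAM-16. Those of Cxcl10 were 3.47, 2.68, 3.08 and 1.40, then -1.81 and -1.79, then 2.97 and 5.02, and then 2.05 and 4.00. This likeness was noticed after the values were seen, and whether the feature measures Tbx6 was not tested.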
